A study of Arabidopsis thaliana with 4 samples.

Results

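The 4 genes described here act in flowers, from the first floral meristem to the tapetum of the anther. They are UFO (AT1G30950), SPL or SPOROCYTELESS (AT4G27330), AMS or ABORTED MICROSPORES (AT2G16910) and A9 (AT5G07230). They were taken by gene name: every probe set paired with 1 of these genes alone was kept, with no minimum signal. Each gene had 1 such probe set, among 22746 tested after the controls were left out and 13356 genes with a probe set of their own. They were measured in whole Arabidopsis thaliana plants aged 5 weeks, grown in hydroponics with 16 h of light, on Affymetrix ATH1 arrays, where short probes grouped into a probe set read one transcript. The wild type was La-er, as the labels spell it, on 2 arrays. The other 2 arrays carried ago4-1, a mutant of AGO4, an Argonaute that uses small interfering RNAs to guide the methylation of DNA. AGO4 itself is not analysed here, since 0 probe sets were paired with it alone. Both genotypes had the same age, tissue and growth conditions, no treatment is named, and the labels name replicates as biological without saying how many plants each holds.

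UFO is an F-box protein that works with LEAFY to switch on APETALA3, and so petal and stamen identity, in young floral meristems. SPL then commits cells of the young anther to the sporogenous fate. The tapetum, the innermost layer of the anther wall, feeds the developing pollen and supplies its wall and coat. AMS is a basic helix-loop-helix transcription factor of that layer, and A9 encodes a small secreted protein of the lipid-transfer type whose promoter is widely used to drive transgenes in the tapetum. All of these steps precede mature pollen, and in a whole plant they take place in a small part of the tissue.

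The arrays had been scaled to a common mean, and their median signals ran from 151 to 165.1. The signals were tested as log2(signal + 16), and a difference is ago4-1 minus wild type on that scale, so folds are of signal + 16 and understate the change of low genes. A gene passed if its p in limma's moderated test, adjusted by Benjamini-Hochberg over all 22746 probe sets, was under 0.05. The 2 arrays per genotype limit the precision of every value. An exact two-sided permutation test of 2 arrays against 2 cannot give a p below 0.333.

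A9 had the clearest difference of the 4 genes. Its signal was 1044 and 1196 in wild type against 2250 and 1690 in ago4-1. Both mutant arrays lay above both wild-type arrays, and on the log2 scale the genotypes' nearest arrays were further apart than the replicates of either genotype. The means were 1120 ± 107 and 1970 ± 396 (SD, n = 2 each), a 1.73-fold higher level in ago4-1. The log2 difference was 0.79 (SE 0.16, 95% interval 0.40 to 1.19), and the 4 pairings of a mutant with a wild-type array gave 0.49 to 1.10. A9 did not pass over all probe sets, with a limma adjusted p of 0.108 and an unadjusted p of 0.00266. It passed, at an adjusted p of 0.0402, when the probe sets under the 30th percentile of mean signal were left out, which lowered the number tested to 15922. With any 1 of the 4 arrays left out the difference ran from 0.59 to 1.00. Its sign could not turn there, since both mutant arrays lay above both wild-type arrays. Since whole plants were used, more tapetum cells and more A9 transcript per cell cannot be told apart.

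AMS, the transcription factor of the same cell layer, did not separate the genotypes. Its signal was 65.5 and 69.2 in wild type against 33.0 and 69.7 in ago4-1. The second mutant array matched the wild type, and the whole difference came from the first one, so the genotypes overlapped. The log2 difference was -0.36 (SE 0.40, 95% interval -1.34 to 0.62, limma adjusted p = 0.719). Without ago4-1 replicate 1 it was 0.04, and without ago4-1 replicate 2 it was -0.77. The difference between the responses of the 2 genes was not tested.

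SPL was low and split each genotype. Its signal was 13.2 and 57.7 in wild type against 68.6 and 13.6 in ago4-1. One array of each genotype was high and one was low, and the low values of the genotypes were almost the same. The log2 difference was 0.11 (SE 0.67, 95% interval -1.51 to 1.73, limma adjusted p = 0.961), an interval that leaves room for a change of more than 1 log2 unit either way. It turned below 0 without wild type replicate 1 (-0.56) and without ago4-1 replicate 1 (-0.65).

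UFO had low signals, at 16.0 and 12.4 in wild type against 47.4 and 19.3 in ago4-1. Both mutant arrays lay above both wild-type arrays, but the nearest pair, 16.0 and 19.3, differed little, and the mutant arrays differed from each other by more than that. The log2 difference was 0.65 (SE 0.41, 95% interval -0.34 to 1.65, limma adjusted p = 0.508). It was 0.23 without ago4-1 replicate 1 and 1.07 without ago4-1 replicate 2. With a pseudocount of 64 in place of 16 it was 0.30, and with 1 it was 1.06, so its size rests on how low signals are treated.

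**Figure D1:**
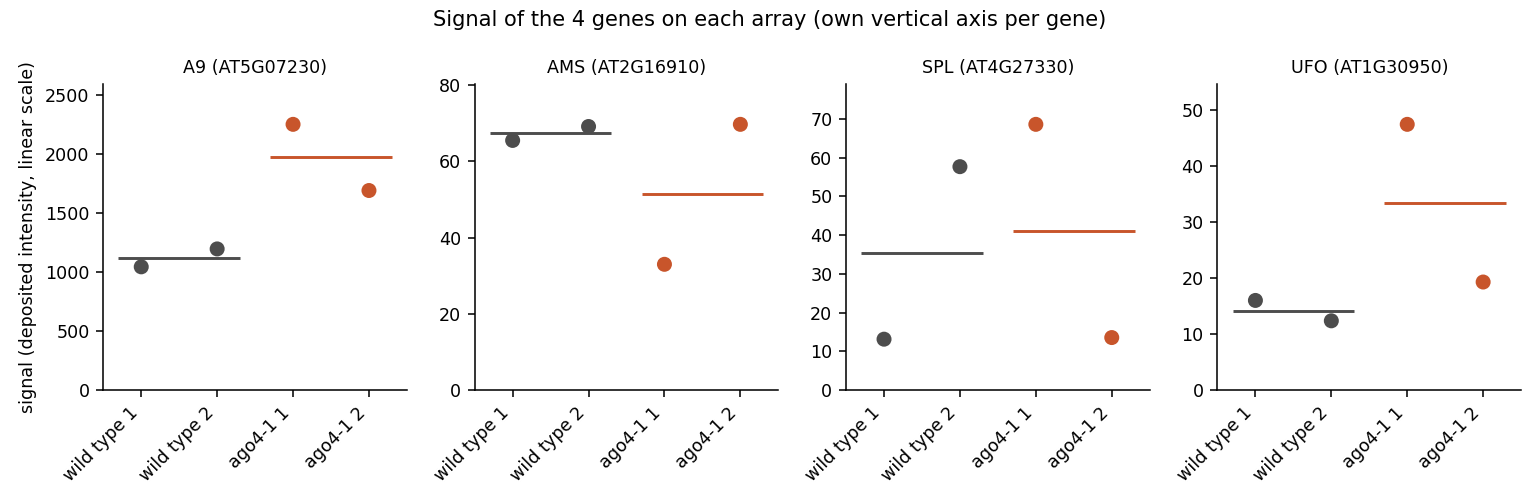
Signal of A9, AMS, SPL and UFO on each of the 4 arrays, on a linear scale from 0 with its own vertical axis for each gene. Points are arrays (grey, wild type; orange, ago4-1) and lines are the means of 2 arrays. A9 runs from 1044 to 1196 in wild type and from 1690 to 2250 in ago4-1, while SPL has a high and a low array in both genotypes.

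Of the 4 genes, 0 passed limma's test over all probe sets, where 0.615% of all probe sets did, and 1, A9, had an unadjusted p under 0.05, as did 15.7% of all. Both mutant arrays lay above both wild-type arrays for 2 of the 4, A9 and UFO, against 21.7% of all probe sets, and the reverse was seen for 0 of 4, against 25.4%. The signals of A9 and AMS stood above the 30th percentile, those of SPL and UFO below it. Among the 15922 probe sets above that percentile 4.06% passed, and A9 was the 1 of the 2 genes tested there that did. The median difference of the 4 genes was 0.38, beside -0.03 for all probe sets. This median is the midpoint of SPL at 0.11 and UFO at 0.65, the 2 genes below the 30th percentile.

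The other genes of the pathway were taken from lists by role, and only those that the annotation pairs alone with a probe set could be read. A gene not read is thus not shown to lack a probe set on the array. For the tapetum's products and the building of the pollen wall these were 6 of 30 genes, A9 included. All 6 had differences above 0, as did 47.1% of all probe sets. For 5 of them both mutant arrays lay above both wild-type arrays, against 21.7% of all probe sets. The list was chosen with earlier results of these data known, and the 6 genes were read on the same 4 arrays. These counts are therefore not independent evidence of a direction. The median difference of the 6 was 0.50, and that of the 5 without A9 was 0.43. Over all probe sets 0 of the 6 passed limma's test, against 0.615% of all, and 4 had an unadjusted p under 0.05, against 15.7%. With quantile normalization or with arrays centred on their medians all 6 also stood above 0. Each of the 6 had a mean signal above the 30th percentile. In the fit with that filter 1 of the 6, A9, passed limma's test, against 4.06% of the probe sets tested there. With 1 array left out the median of the 6 ran from 0.43 to 0.53. It could not reach 0 there, since 5 of the 6 had genotypes that did not overlap.

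SWEET8, a sugar exporter needed for pollen wall formation, had signals of 325 and 453 in wild type against 665 and 612 in ago4-1. The log2 difference was 0.71 (SE 0.19, limma adjusted p = 0.163). SHT, which makes the spermidine conjugates of the pollen coat in the tapetum, stood at 269.8 and 253.6 in wild type against 396 and 389.6 in ago4-1. The arrays of each genotype were close to each other, and the difference was 0.56 (SE 0.17, adjusted p = 0.194). ATA27, an anther beta-glucosidase, stood at 1302 and 1390 in wild type against 1892 and 1756 in ago4-1, a difference of 0.43 (SE 0.11, adjusted p = 0.149). These 3 genes and A9 had non-overlapping genotypes, and the difference of A9 was the largest of the 6. UPEX1, a galactosyltransferase of the early pollen wall, was at 0.28, also without overlap. EXL5, an extracellular lipase, was at 0.01, with signals from 147 to 287 that overlapped. Neither of these was named by the rule used for the lists, and both are given to account for the 6.

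The factors that act above these products gave no clear direction, and their contrast with the products was not tested. Of the 11 genes listed as tapetum transcription factors 3 were read, AMS among them. In limma's test 0 passed, against 0.615% of all probe sets, and 0 had an unadjusted p under 0.05, against 15.7%. BHLH089 and BHLH091 are related helix-loop-helix proteins that pair with the early tapetum regulator DYT1. BHLH089 had signals of 97.5 and 64.7 in wild type against 97.5 and 79.1 in ago4-1, which overlapped (log2 difference 0.12). BHLH091 had 33.3 and 13.0 against 48.5 and 45.7, without overlap (log2 difference 0.74, SE 0.40, adjusted p = 0.443), and ran from 1.13 with a pseudocount of 1 to 0.36 with 64.

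**Figure D2:**
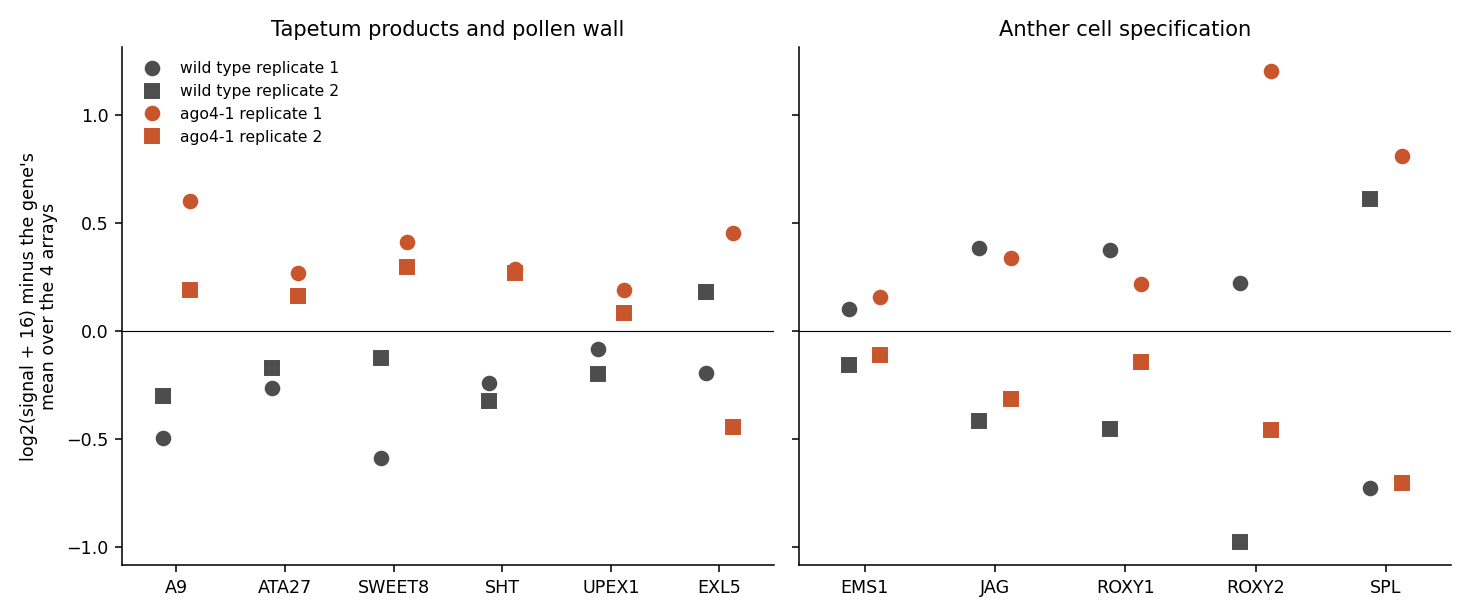
Values of log2(signal + 16) for the genes of the tapetum product list (left) and the anther cell specification list (right), each after subtracting the gene's mean over the 4 arrays. Circles are replicate 1 and squares replicate 2 of wild type (grey) and ago4-1 (orange). On the left the ago4-1 points of 5 of 6 genes lie above the wild-type points, and on the right replicate 1 lies above replicate 2 in both genotypes for 4 of 5 genes.

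Of the earliest anther genes 0 of 5 passed limma's test, against 0.615% of all probe sets. Of these 5 genes 0 had an unadjusted p under 0.05, against 15.7% of all. They were SPL and 4 of the other 10 genes on the list of anther cell specification, and their median difference was 0.07, from -0.11 to 0.43 with 1 array left out. EMS1, the receptor kinase that sets tapetum fate, had signals of 169 and 139 in wild type against 176 and 144 in ago4-1 (log2 difference 0.05, 95% interval -0.58 to 0.68). ROXY1, a glutaredoxin of petal and anther development, had 163.5 and 85.3 against 145 and 109 (difference 0.07). Its relative ROXY2 had 38.2 and 7.66 against 91.1 and 17.9 (difference 0.75, 95% interval -0.88 to 2.38), and ran from 1.18 with a pseudocount of 1 to 0.40 with 64. In all 3 the first array of each genotype was higher than the second, and the same held for JAG, a zinc-finger regulator of organ growth, at 73.0 and 35.0 against 70.1 and 38.8. Replicate 1 thus lay above replicate 2 in both genotypes for 4 of the 5 genes, against 25.8% of all probe sets, and SPL was the exception. That order also held for 7 of 15 mature pollen genes, 2 of 6 tapetum products and 2 of 3 tapetum transcription factors. For root genes it was 2 of 3, for meiosis 1 of 2, for floral identity 1 of 3 and for leaf 0 of 2. The part of this replicate order in the genotype differences was not tested.

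Among the floral meristem and organ identity genes 3 of 23 were read, and 0 passed in limma's test, against 0.615% of all probe sets. An unadjusted p under 0.05 was found for 0 of the 3 genes, against 15.7% of all. Beside UFO these were SEU, a co-repressor that acts in floral organ identity, and CLV3, the peptide that limits stem cell number. SEU stood at 335 and 420.0 in wild type against 228 and 294 in ago4-1, lower on both mutant arrays (log2 difference -0.51, SE 0.21, adjusted p = 0.326). CLV3 was at 2.98 and 13.8 against 5.34 and 3.18, with overlap (difference -0.23). With a pseudocount of 64 it was -0.08, and with 1 it was -0.58.

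Meiosis, which follows sporogenous commitment and runs beside the early tapetum, was read through 2 of 10 genes. SDS, a cyclin of meiotic prophase, had signals of 48.2 and 37.8 in wild type against 2.39 and 4.35 in ago4-1. The mutant values lay near the bottom of the scale and did not overlap with the wild type. The log2 difference was -1.60 (SE 0.33, limma adjusted p = 0.108, unadjusted p = 0.00266), and it ran from -3.36 with a pseudocount of 1 to -0.67 with a pseudocount of 64. SPO11-1, which makes the DNA breaks that start recombination, had 22.0 and 17.7 against 13.3 and 2.40 (difference -0.62, adjusted p = 0.475), and ran from -1.57 with a pseudocount of 1 to -0.23 with 64. Of both genes 0 passed over all probe sets, against 0.615% of all.

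**Figure D3:**
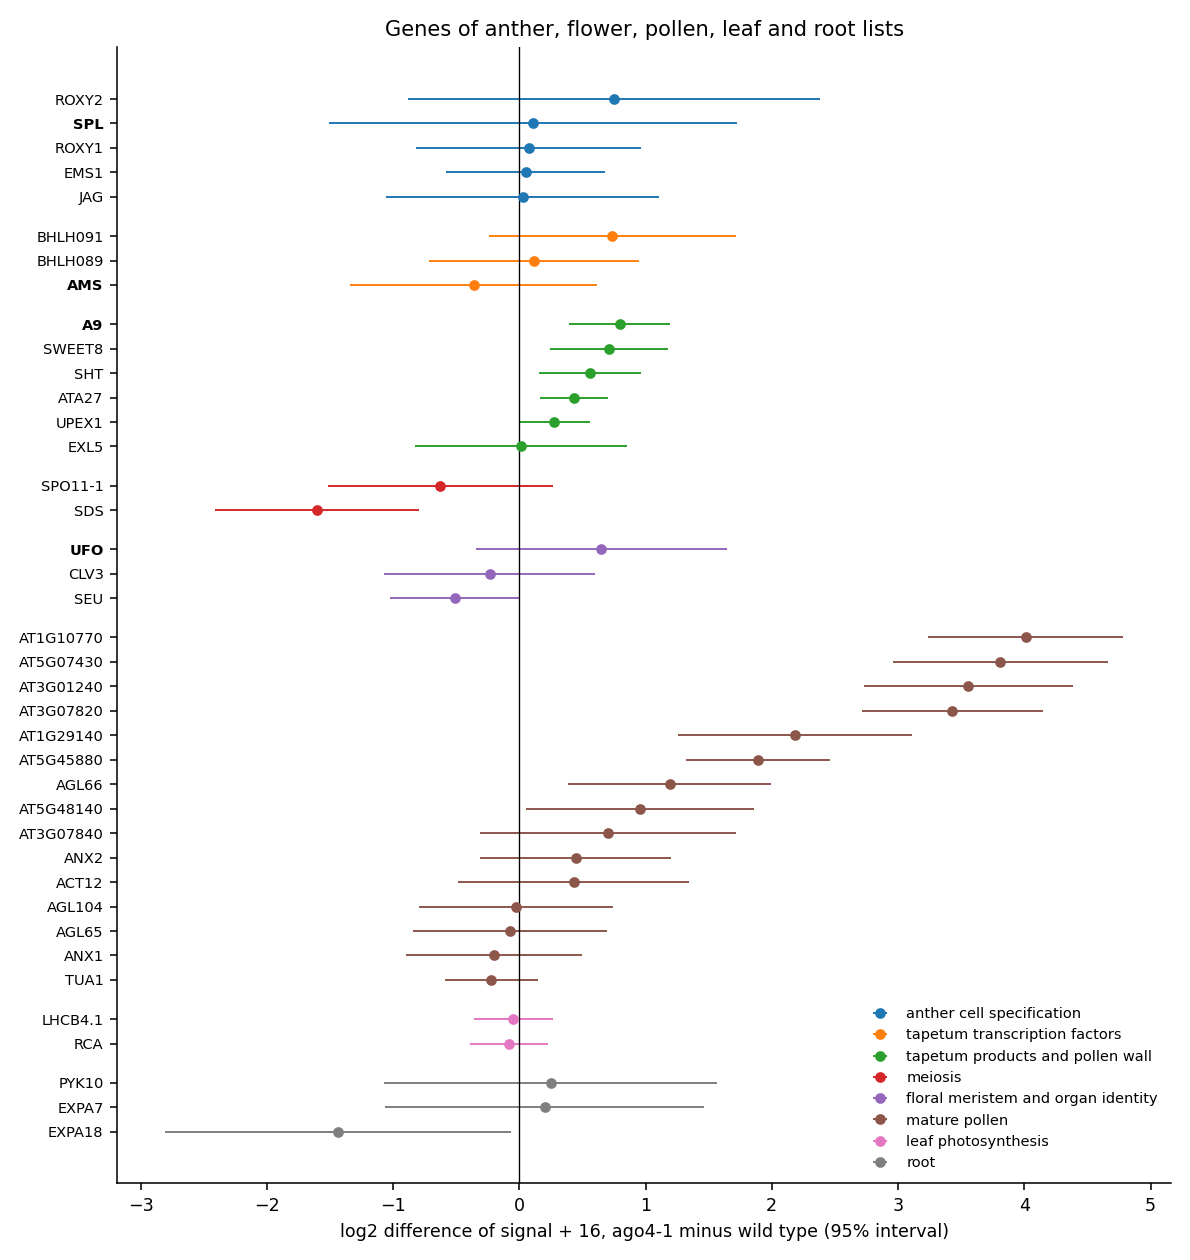
Log2 difference of signal + 16, ago4-1 minus wild type, for the 39 list genes that alone are paired with a probe set. Bars are 95% intervals from limma (n = 2 arrays per genotype). Colours are the lists, and bold names are A9, AMS, SPL and UFO. The tapetum products lie between 0.01 and 0.79, and the mature pollen genes between -0.22 and 4.01.

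The largest differences on these lists were in mature pollen genes. Of 33 listed genes 15 were read, and 5 rose and 0 fell over all probe sets, against 0.4% and 0.215% of all. The list takes in 4 genes already known from an earlier reading of these data to stand among the largest increases, so its count is not independent evidence of its direction. Those 4 are the wall enzymes and inhibitors AT1G10770, AT5G07430 and AT3G07820, and AT3G01240, at 4.01, 3.81, 3.43 and 3.56 on the log2 scale. Their wild-type signals were near the bottom of the scale, from 1.53 to 17.8, and the sizes rest on the pseudocount: AT1G10770 ran from 2.53 with 64 to 5.58 with 1, and AT5G07430 from 2.18 to 6.40. The fifth, AT5G45880, of the Ole e 1 type, was singled out after its value was seen and stood at 1.89 (adjusted p = 0.038). Of the 10 genes left, 6 were above 0, led by AT1G29140 at 2.18 (limma adjusted p = 0.0797) and AGL66 at 1.19 (adjusted p = 0.171). Both are given after their values were seen. AT1G29140 had signals of 37.8 and 22.3 in wild type against 241 and 150 in ago4-1. AGL66 lay below the 30th percentile, at 5.21 and 4.11 against 37.2 and 25.8. The other 4 of the 10 were below 0, from -0.03 for AGL104 to -0.22 for TUA1. With centred arrays 12 of the 15 were above 0 in place of 11. The 5 calls were all lost in limma's test with any 1 array left out, where 0 to 4 of all probe sets passed, while the difference of AT1G10770 stayed between 3.94 and 4.08 and that of AT5G07430 between 3.627 and 3.995. The median was 0.96 over the 15 genes, and 0.45 over the 11 others without the 4 already known. The tapetum products had 0.50 over 6 genes. With a pseudocount of 64 the medians were 0.47 over the 15 genes and 0.45 over the tapetum products, and with 1 they were 1.49 and 0.51. Differences between these lists were not tested.

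Leaf and root genes were read on the same arrays to describe the tissue sampled. Of 8 listed leaf genes 2 were read, and of 8 root genes 3. The leaf genes RCA and LHCB4.1 were high on every array, from 28688 to 31034 for RCA and from 29679 to 31767 for LHCB4.1, with differences of -0.08 and -0.05. Under quantile normalization these became 0.05 and 0.07, and that of LHCB4.1 was 0.00207 with centred arrays. The highest signal of an array ran from 42660 to 45189, and whether signals this high still follow transcript amount was not tested. The root genes lay far below RCA and LHCB4.1 and were uneven between replicates. PYK10 was at 290.5 and 114 in wild type against 351 and 137 in ago4-1. EXPA7 was at 6.95 and 28.6 against 9.38 and 37.3. EXPA18, a root-hair expansin, was at 98.1 and 76.9 against 49.5 and 6.13 (difference -1.44, adjusted p = 0.299). Of these 5 genes 0 passed in limma's test, against 0.615% of all probe sets. An unadjusted p under 0.05 was found for 1 of them, EXPA18, against 15.7% of all. Their part in the differences of the flower genes was not tested.

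The neighbours of the 4 genes on the chromosomes were read as well. The 10 annotated genes on either side of each were taken. Probe sets were paired with 3 for A9, 9 for AMS, 14 for SPL and 4 for UFO. Of these neighbours 0 passed over all probe sets in limma's test, against 0.615% of all. Next to A9, IQD24, a calmodulin-binding protein gene of the IQD family, was at 717 and 743 in wild type against 409 and 461 in ago4-1. Its difference of -0.73 (unadjusted p = 0.00176, adjusted p = 0.0942) ran against that of A9 itself, and EMS1, 6 genes away, was at 0.05. AT5G07260, also in this window, was at 0.66 with low signals, from 5.04 to 30.2. Near SPL, AT4G27280 was at 332 and 595 against 989 and 1181 (difference 1.25, unadjusted p = 0.00333, adjusted p = 0.117), and PHOS34 was at 0.26. Near AMS the smallest p belonged to AT2G16840 at -1.03 and AT2G16900 at 0.41 (limma unadjusted p = 0.0252 and 0.0326). AT2G16840 had low signals, 18.5 and 34.4 in wild type against 3.52 and 5.43 in ago4-1. Near UFO, AT1G31000 was at 0.47 and AT1G30960 at -0.22 (unadjusted p = 0.227 and 0.418). AT1G31000 was low too, with signals from 9.80 to 29.1.

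The genes whose centred log2 values over the 4 arrays lay nearest to those of A9, out of 13512 others with a single gene, were AT1G68110, AT3G21000 and AT5G22430. Their root mean square distances were 0.015, 0.032 and 0.038 log2 units. AT5G22430 had signals of 1103 and 1227 in wild type against 2370 and 1867 in ago4-1. For AMS the nearest were AT5G60160, AT1G69360 and AT1G11710, at 0.026, 0.027 and 0.027 log2 units, each low on ago4-1 replicate 1 alone. With 4 arrays a close match is a description of these arrays only. The comparison was made for genes at or above the 30th percentile, so not for SPL and UFO, but their matches were not held to that limit. AT3G21000 lies below it, with signals of 5.07 and 6.80 in wild type against 27.6 and 16.2 in ago4-1.

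**Figure D4:**
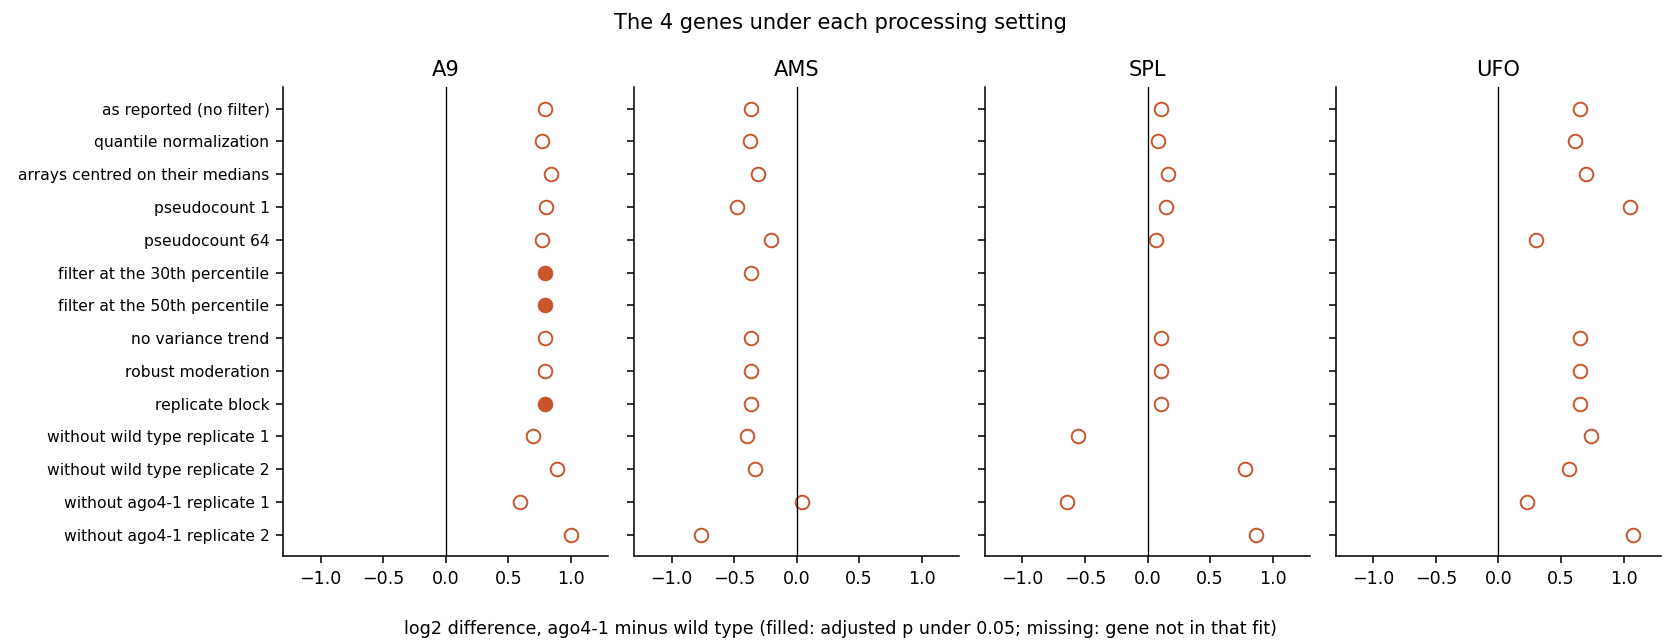
Log2 difference, ago4-1 minus wild type, of each of the 4 genes under the setting reported and 13 alternatives, one line for each. Filled points have an adjusted p under 0.05, and a gene has no point where a filter left it out. A9 stays between 0.59 and 1.00 and is filled in 3 settings, AMS crosses 0 without ago4-1 replicate 1, and SPL crosses 0 without replicate 1 of either genotype.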

How the data were processed

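Total RNA was labelled with biotin, per the labels' protocols. The deposited files give intensity on a linear scale, 1 value for a probe set on an array. GCOS produced them, per the submitters' processing notes, with its version and settings not given in the sources used here. A mean trimmed by 2% at each end was 500.1 on every array, so no further scaling was applied. Of 22810 probe sets, 64 controls were left out. In the annotation of the platform 13513 probe sets name 1 gene, 503 name several and 8730 are not listed. RefSeq's table of TAIR10.1 held 13436 of the first kind. The files name no build, so no coordinates or sequences are given.

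Genotypes were set against each other in limma 3.58.1 (R 4.3.3) with a variance trend, 2 residual degrees of freedom and 4.2 prior ones (median). The p-values weigh the genotype difference against the spread between these samples, which limma moderates with that of the other probe sets. Of 141 genes on 9 lists, 39 had a probe set that the annotation pairs with them alone. The list of stamen ripening and anther opening had 0 of 7. Whether the genes not read have probe sets among those not listed or naming several genes was not checked. Named genes were the 4 genes, up to 4 per list and 2 neighbours per gene with the smallest p, and 3 nearest profiles for genes above the 30th percentile. The members and lists were chosen with earlier results of these data known. Identical arrays were looked for, and 0 pairs were found. Alternatives were quantile normalization, median centring, pseudocounts of 1 and 64, filters at the 30th and 50th percentile, a block for the replicate number, robust moderation, no variance trend, and the removal of each array.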

Additional observations from a re-analysis of the deposited data

How the results depend on the processing

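Of all probe sets 140 passed, 91 higher and 49 lower in ago4-1. The count was 310 with a pseudocount of 1, 85 with a pseudocount of 64, 647 and 501 with filters at the 30th and 50th percentile, 228 with robust moderation, 0 with no variance trend (2993 at an unadjusted p under 0.05) and 0 to 4 with 1 array left out (2148 to 4106 unadjusted), where the array left alone in its genotype is assumed to vary like the others. The share higher in ago4-1 went from 65% to 52.7% and 49.7% with the filters and 52.0% with the block.

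A9 passed in 3 of 13 alternatives, with its difference of 0.795 unchanged: at adjusted p = 0.0402 and 0.0445 with the filters and 0.0199 with the replicate number as a block. With 1 array left out it ran from 0.590 to 1.00. AMS ran from -0.765 to 0.041, SPL from -0.648 to 0.868 and UFO from 0.228 to 1.07, and these 3 passed in none of the settings in which they were tested. The filters left out SPL and UFO, and the stricter one AMS.

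The replicate block raised the count of calls to 947. The labels do not say that equal numbers mark a shared batch, and with 2 pairs the data do not settle it: the deviations of equally numbered arrays correlated at 0.069 across all probe sets and at 0.166 across those above the 30th percentile. The numbers were therefore not used to pair the arrays. Of 253 values of 21 other named genes, 15 turned sign. With 1 array left out EMS1 ran from -0.085 to 0.184, ROXY1 from -0.338 to 0.487, ROXY2 from -0.079 to 1.58, BHLH089 from -0.128 to 0.364, CLV3 from -0.561 to 0.092, PYK10 from -0.378 to 0.880 and EXPA7 from -0.333 to 0.738. RCA (0.045) and LHCB4.1 (0.074) turned with quantile normalization, and LHCB4.1 (0.00207) with centred arrays. The cause was not tested. Signals near the bottom of the scale limit SPL, UFO, ROXY2, BHLH091, SDS, SPO11-1, CLV3, AGL66 and the called pollen genes other than AT5G45880. They also limit the neighbours AT2G16840, AT5G07260 and AT1G31000.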
